A study of Mus musculus with 2 samples.

Results

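Expression of 10 circadian clock genes, Per1, Per2, Per3, Cry1, Cry2, Arntl, Clock, Dbp, Nfil3 and Bhlhe40, was compared between 2 mouse cultures labelled T helper 9 (TH9), the CD4 T cell type that makes the cytokine IL-9. The genes were chosen by name, and all their probes were found through the RefSeq accession that each probe carries, which gave 11 probes for the 10 genes among 27220 probes for 20651 genes. Both cultures began from naive CD4 T cells sorted from spleen and lymph nodes, which received anti-CD3 and anti-CD28 antibodies at 2 µg/ml each, with human IL-2 at 100 U/ml, IL-4 at 10 ng/ml and TGFβ1 at 2 ng/ml. Culture lasted 5 days by the descriptions of the samples, or up to 6 by the protocol. The control culture was labelled wild-type, with no further allele named. The other came from SIRT1flox/flox-CD4-Cre mice, in which a Cre recombinase driven by the T cell gene Cd4 acts on floxed alleles of Sirt1, an NAD-dependent deacetylase. Strain, age, number of animals and the time of day of harvest are not given in the sources used here. Each genotype had 1 array, so no difference below has a replicate check, no test between genotypes was possible and none is given.

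The circadian clock is a feedback loop of transcription. The heterodimer of CLOCK and BMAL1, the product of Arntl, binds E-box sequences and switches on Per and Cry genes, whose proteins then repress that heterodimer. BHLHE40 also represses at E-boxes, while DBP and NFIL3 activate and repress, respectively, at D-box sequences, and REV-ERB and ROR receptors compete at RORE sequences of Arntl. SIRT1 is known to bind CLOCK and to deacetylate BMAL1 and PER2. In T cells, NFIL3 and BHLHE40 also act as regulators of cytokine genes.

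The promoter letters of the members with the largest differences are shown first, since the loop runs through short sequences in them. RefSeq windows of 300 bases on GRCm38.p6, from 250 bases before to 50 after a gene's start, were matched by symbol for 8 of the 10 genes, with 12 windows in all and none for Per2 and Bhlhe40. Capitals mark an E-box (CACGTG), a D-box (TTATGTAA, TTATGCAA or TTACGTAA), a cAMP response element (CRE, TGACGTCA) or a RORE. Each was searched on both strands, and the RORE only in a form that ends in GGTCA. The first is 1 of 2 windows of Per1 (chr11:69098699-69098998, plus strand), the second that of Cry1 (chr10:85185005-85185304, minus strand), the third 1 of 2 of Arntl (chr7:113207261-113207560, plus strand) and the last that of Nfil3 (chr13:52980990-52981289, minus strand).
Per1: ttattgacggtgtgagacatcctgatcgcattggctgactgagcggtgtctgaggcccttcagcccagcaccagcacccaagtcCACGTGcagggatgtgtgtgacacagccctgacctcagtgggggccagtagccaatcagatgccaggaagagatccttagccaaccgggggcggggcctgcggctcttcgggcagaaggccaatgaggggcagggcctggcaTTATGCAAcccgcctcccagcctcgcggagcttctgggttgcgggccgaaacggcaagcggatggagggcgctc
Cry1: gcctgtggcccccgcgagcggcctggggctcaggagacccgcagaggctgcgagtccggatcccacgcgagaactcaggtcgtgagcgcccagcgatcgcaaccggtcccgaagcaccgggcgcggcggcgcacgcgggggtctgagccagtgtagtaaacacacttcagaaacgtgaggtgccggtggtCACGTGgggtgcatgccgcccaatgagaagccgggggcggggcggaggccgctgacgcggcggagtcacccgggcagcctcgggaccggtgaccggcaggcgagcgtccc
Arntl: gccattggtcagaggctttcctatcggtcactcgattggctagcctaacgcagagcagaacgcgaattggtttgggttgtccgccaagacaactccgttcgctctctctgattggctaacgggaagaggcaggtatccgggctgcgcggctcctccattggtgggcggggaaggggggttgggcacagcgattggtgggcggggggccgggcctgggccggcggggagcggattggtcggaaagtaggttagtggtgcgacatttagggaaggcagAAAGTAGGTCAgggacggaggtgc
Nfil3: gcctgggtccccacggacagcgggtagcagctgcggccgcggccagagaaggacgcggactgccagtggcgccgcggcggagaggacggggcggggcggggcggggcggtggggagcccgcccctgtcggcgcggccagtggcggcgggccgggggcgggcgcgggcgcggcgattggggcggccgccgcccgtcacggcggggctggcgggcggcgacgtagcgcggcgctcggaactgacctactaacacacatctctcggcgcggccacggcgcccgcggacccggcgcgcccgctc
The Per1 window held an E-box starting 166 bases upstream of the start and a D-box (TTATGCAA) starting 24 bases upstream, and the Cry1 window held an E-box 60 bases upstream. The Arntl window held a RORE, AAAGTAGGTCA, starting 26 bases downstream. The Nfil3 window held none of the searched letters, and neither did the windows of Cry2, Clock and Dbp or the other windows of Per1 and Arntl. Both Arntl windows also held aaagtaggtta, which ends in ggtta and so was not matched by the RORE search. The Per3 window held 2 D-boxes (TTATGTAA). Over all 32851 windows of this length, 7.15% held an E-box, 1.78% a D-box, 1.79% a CRE and 0.384% a RORE. These matches describe letters only, and no binding was measured here.

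Each array carried 43020 spots of 39429 gene probes, of which 57.1% (wild-type) and 65.3% (labelled knockout) were well above background by the scanner's flag. The lowest signals that carried this flag were 24.6 and 9.76. Sirt1 itself gave signals of 3240 and 2920, a difference of -0.084 ± 0.20 on the log2 scale (knockout minus wild-type, scanner error). Where in the transcript the Sirt1 probe lies could not be looked up here, so this checks no label, and every direction below rests on the labels: "in knockout" means on the array labelled knockout. T cell genes were present, with Cd3e at 2330 and 1020 and Cd3d at 4880 and 5440, but Il9, the defining TH9 gene, was at 5.48 and 7.36, below the background flag on both arrays. Markers of B cells, macrophages and other cells gave signal on both arrays and are described after the clock genes.

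Of the 10 clock genes, 9 were well above background on both arrays and Per3 on neither. Against the wild-type array, Per1 was 1.80-fold higher in knockout, Cry1 1.51-fold, Nfil3 1.36-fold and Arntl 1.36-fold. Clock, Per2, Cry2, Bhlhe40 and Dbp lay between -0.22 and 0.13 on the log2 scale. No member reached 2-fold in either direction, where 3.97% of the 12959 genes measured on both arrays were at least 2-fold higher and 3.63% at least 2-fold lower (7.6% in all). At 1.5-fold, 2 of 9 members were higher and 0 lower, beside 11% and 11.9% of all genes (22.9% in either direction). The members' median difference was 0.13, with 6 higher and 3 lower, and that of all genes was 0.0038. The middle 50% of all genes ran from -0.30 to 0.28, and 5 members fell inside it, 4 above it and 0 below it. Differences are in log2 processed signal after scaling each array to its 75th percentile (584 and 558), and each error is the scanner's own, combined over both arrays.

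The activators of the loop are given first. Arntl, which encodes BMAL1, gave a signal of 803 in wild-type and 1040 in knockout, a difference of 0.44 ± 0.20. Clock, which encodes its partner, had 826 and 866, a difference of 0.13 ± 0.20. Arntl was thus higher on the array labelled knockout by 2.15 scanner errors and Clock by 0.66. Of all measured genes, 16.3% were at least as high as Arntl and 37.1% at least as high as Clock. Since the scaling of an array cancels in a ratio of probes on it, the ratio of Arntl to Clock can be compared directly, and it was 1.24-fold higher in knockout, 0.30 ± 0.29 on the log2 scale. That is about 1 scanner error, so the arrays do not separate the partners.

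The Per genes encode the repressors that build up over the cycle, and Per1 is also an immediate target of glucocorticoid and cAMP signalling. Per1 gave a signal of 1530 in wild-type and 2630 in knockout, a difference of 0.85 ± 0.20, and was the member furthest from 0. It lay 4.15 scanner errors from 0, and 5.79% of all measured genes were at least as high. Per2 had 74.8 and 74.1, a difference of 0.052 ± 0.23. The signals of Per2 differed by less than 1 scanner error on arrays where Per1 was higher. The ratio of Per1 to Per2 was 1.74-fold higher in knockout, 0.80 ± 0.31 on the log2 scale. Per2 was dim, at median pixel intensities of 127.5 and 115 over local backgrounds of 18.5 and 18.5, and with another background correction, normexp, its difference was -0.73 and that of Per1 1.02. Per3, the third paralog, had 5.51 and 2.19, each about as large as its own error of 5.49 and 2.19, and no fold is given.

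**Figure D1:**
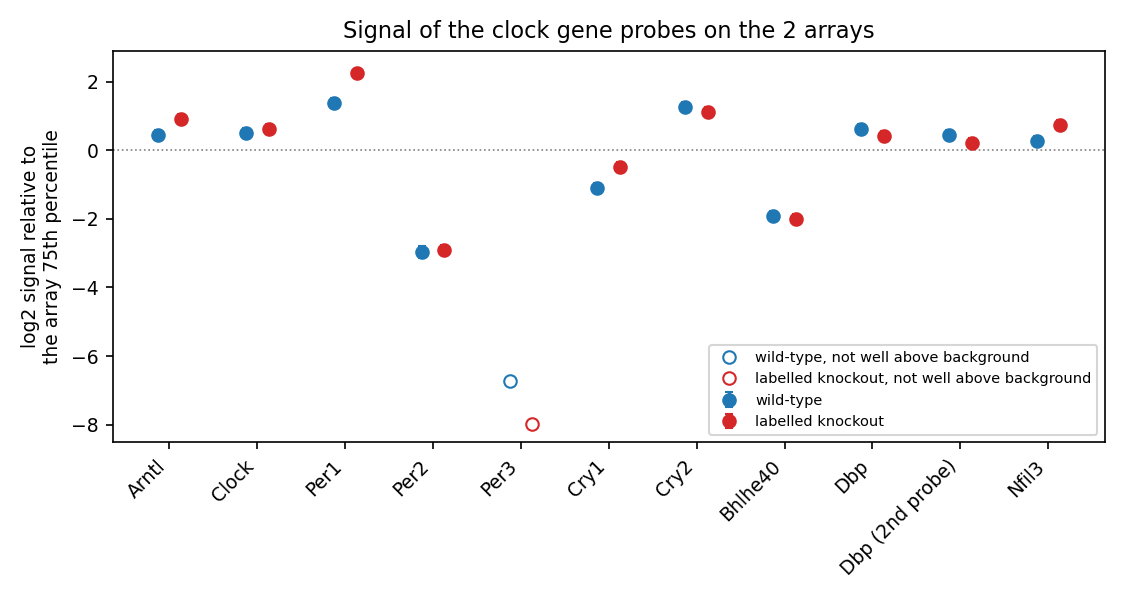
Signal of each clock gene probe on the wild-type array (blue) and the array labelled knockout (red), as log2 processed signal relative to the array's 75th percentile, with bars of 1 scanner error that are mostly smaller than the points. Filled points are well above background and the open points, Per3, are not; probes differ in how brightly they hybridise, so only the blue and red point of the same probe can be compared, and for Per1 they stand at 1.39 and 2.24.

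The Cry genes encode the cryptochromes, which carry most of the repression of CLOCK and BMAL1. Cry1 gave a signal of 273 in wild-type and 394 in knockout, a difference of 0.60 ± 0.21. Cry2 had 1400 and 1210, a difference of -0.14 ± 0.20. The paralogs lay on opposite sides of 0, Cry1 by 2.89 scanner errors and Cry2 by 0.71, and 10.8% of all genes were at least as high as Cry1. The ratio of Cry1 to Cry2 was 1.67-fold higher in knockout, 0.74 ± 0.29 on the log2 scale, and 0.23 with normexp. Cry1 itself was at 0.25 with that correction. Cry2 turned to 0.030 with scaling to the array median and to 0.019 with normexp, so its direction is not settled.

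Bhlhe40 encodes a repressor of E-box genes that T cells also raise on activation. It gave a signal of 155 in wild-type and 139 in knockout, a difference of -0.092 ± 0.21. The signals differed by less than 1 scanner error. The direction turned to 0.083 with scaling to the median and was -0.51 with normexp, while the authors' deposited table gave 0.0003.

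The D-box factors differed in direction. Nfil3, the repressor, gave 710 in wild-type and 925 in knockout, a difference of 0.45 ± 0.20, and 15.9% of all genes were at least as high. Dbp, the activator and a direct output of CLOCK and BMAL1, had 2 probes. Its brighter probe read 905 and 740, a difference of -0.22 ± 0.20, and its other probe 793 and 647, a difference of -0.23 ± 0.20. The 2 Dbp probes thus gave nearly the same difference, each just over 1 scanner error, where probes of the same gene lay 0.33 apart in the median over 2902 genes with several. The ratio of Nfil3 to Dbp was 1.59-fold higher in knockout, 0.67 ± 0.29 on the log2 scale, and between 0.57 and 0.68 over the settings tried. Dbp stayed below 0 and Nfil3 above 0 in all of these settings.

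**Figure D2:**
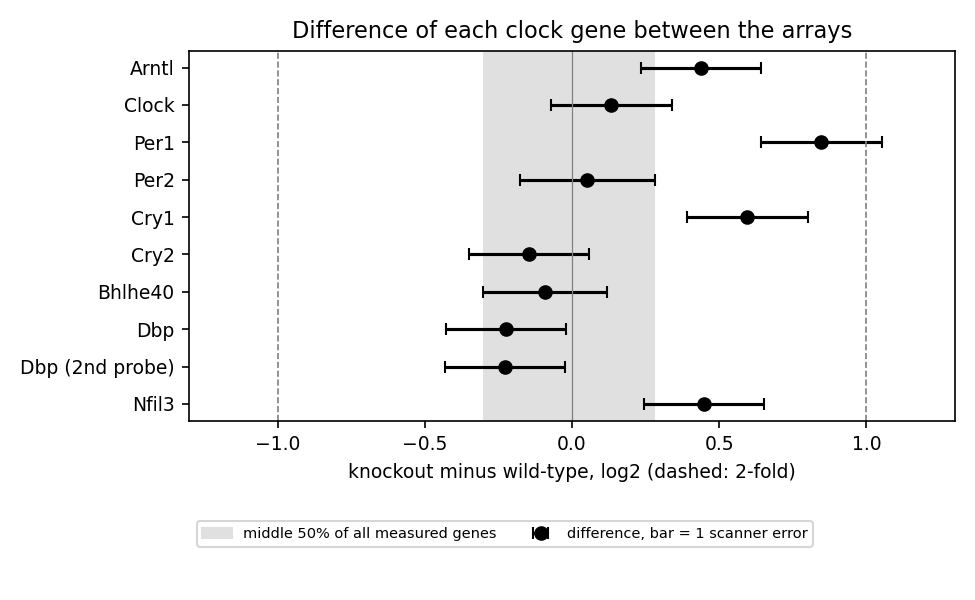
Difference of each clock gene probe well above background on both arrays, as knockout minus wild-type on the log2 scale, with bars of 1 scanner error, the middle 50% of all 12959 measured genes in grey and 2-fold as dashed lines. Per1, Cry1, Nfil3 and Arntl lie to the right of the grey band, and no point reaches a dashed line.

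Of the 9 measured members, 4 (Per1, Cry1, Nfil3 and Arntl) were higher by more than 2 scanner errors and 0 were lower by as much, beside 16.6% and 17.1% of all genes (33.7% in all). The scanner error was close to 10% of the signal for each of the 9 (10.0% to 12.1%). Probes spotted several times gave a smaller spread, with a median SD between spots of 0.035 (wild-type) and 0.031 (knockout) over 248 such probes. Neither measure holds any spread between cultures or animals, so these 4 differences cannot be placed against biological variation. No member spot was saturated or carried an outlier flag.

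The choice of processing mattered for the dim members. Scaling to the median took Per1 to 1.02, past 2-fold, and also moved the median of all genes to 0.18. Quantile normalization and loess between the arrays left Per1 at 0.83, and the authors' deposited table gave 0.85. Normexp took Per2 to -0.73, Bhlhe40 to -0.51 and Cry1 to 0.25, while Arntl (0.51), Nfil3 (0.47), Clock (0.26), Per1 (1.02), Cry2 (0.019) and Dbp (-0.096) moved by less than their scanner error. The share of higher genes among all genes past 2-fold was 52.2%, and it was 72.4% with scaling to the median, 62.6% with quantile normalization, 63.9% in the authors' deposited table and 12.9% with normexp.

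**Figure D3:**
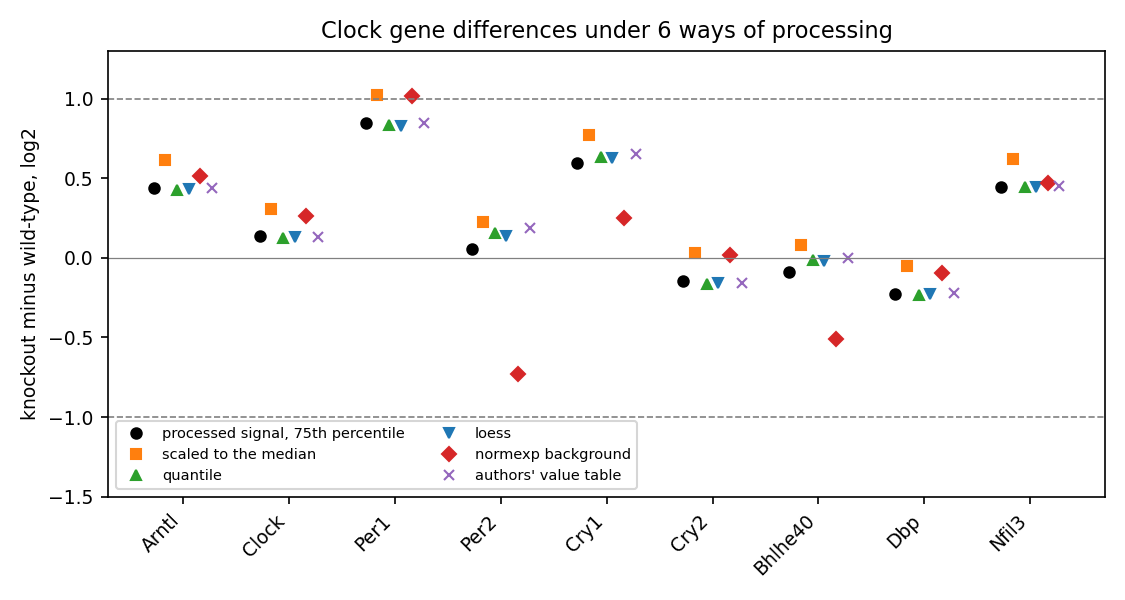
Difference of each measured clock gene, as knockout minus wild-type on the log2 scale, under 6 ways of processing, with 2-fold as dashed lines. The symbols of Arntl, Nfil3, Clock and Dbp lie close together, while the normexp symbols of Per2 (-0.73), Bhlhe40 (-0.51) and Cry1 (0.25) lie well below their other symbols.

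The rest of the clock pathway was taken as a list of 33 further genes, of which 27 were well above background on both arrays, 1 on the knockout array alone and 5 on neither. Of the 27, 1 was at least 2-fold higher and 1 at least 2-fold lower, beside 3.97% and 3.63% of all genes. The list's median was 0.052 on the log2 scale, with 14 higher and 13 lower. Among further parts of the loop itself, Npas2 and Arntl2, which can stand in for Clock and Arntl, Bhlhe41, the paralog of Bhlhe40, and Nr1d1, which encodes REV-ERBα, were not well above background on either array. Nr1d2, which encodes REV-ERBβ, a repressor of Arntl, gave 628 in wild-type and 532 in knockout, a difference of -0.17 ± 0.20. Ciart, a repressor of CLOCK and BMAL1, had -0.065 ± 0.21. Both differed by less than 1 scanner error, and with scaling to the median they were at 0.0009 and 0.11.

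ROR receptors activate Arntl through ROREs. Rora had a difference of 0.28 ± 0.21, which was -0.0054 with normexp. Rorb, at signals of 65.3 and 35.8 by its brighter probe, had a difference of -0.80 ± 0.25. Its other probe read 17.6 and 17.6, above background in knockout alone, and Rorb was at -0.37 as the mean over probes and at -1.10 with normexp. The PAR bZIP factors Tef and Hlf, which activate at D-boxes as Dbp does, had differences of -0.18 and 0.25, each within 1 scanner error. Hlf, at signals of 46 and 52.3, was at -0.81 with normexp and at 0.43 in the authors' deposited table, so its direction is not settled.

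Enzymes that set the stability of PER and CRY proteins went both ways, with 4 higher and 4 lower of the 8 measured, though 3 of the 4 higher (Btrc, Csnk1d and Csnk2a1) were below 0 as means over probes. Gsk3b, a kinase of several clock proteins, had 2020 and 937 by its brightest probe and was 2.06-fold lower in knockout (-1.04 ± 0.20), while its other probes gave -0.47 and -0.25. The brightest probe was short of 2-fold with scaling to the median (-0.87) and with normexp (-0.79). Csnk1e, casein kinase 1 epsilon, had 2110 and 1290, a difference of -0.64 ± 0.20. Fbxw11, a ubiquitin ligase subunit, had 5070 and 6710 by its brighter probe, a difference of 0.47 ± 0.20, and 0.48 by the other. Csnk1d gave 0.39 by its brighter and -0.84 by its dimmer probe, so its direction is not settled. Genes of partner proteins of the PER and CRY complex lay between -0.43 (Tipin) and 0.27 (Sfpq) by their brightest probes. Of these, Ddx5 had 0.052 by its brightest probe and -0.0062 and -0.88 by its others. As the mean over probes it was at -0.28, so its direction is not settled. Fbxl21 passed the background flag on neither array.

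Output genes of the clock were mixed. Wee1, a kinase that holds cells before mitosis and has E-boxes that CLOCK and BMAL1 use, had 558 and 272, a difference of -0.97 ± 0.20, just short of 2-fold lower. Tspan4, a tetraspanin, had 107 and 172, a difference of 0.75 ± 0.22, which was -0.13 with normexp. Nampt, the enzyme of NAD salvage, had 983 and 1150, a difference of 0.29 ± 0.20. Noct, Por and Usp2 lay between -0.23 and 0.20, and Usp2 was at -0.72 with normexp. Lonrf3 passed the background flag in knockout alone. Its brighter probe read 36 against 19, a bound of 1.53-fold higher, and its other probe 28.6 against 9.62, a bound of 1.22-fold. These bounds carry no scanner error, and the brighter probe had median pixel intensities of 65 (wild-type) and 77 over local backgrounds of 22 and 20.

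**Figure D4:**
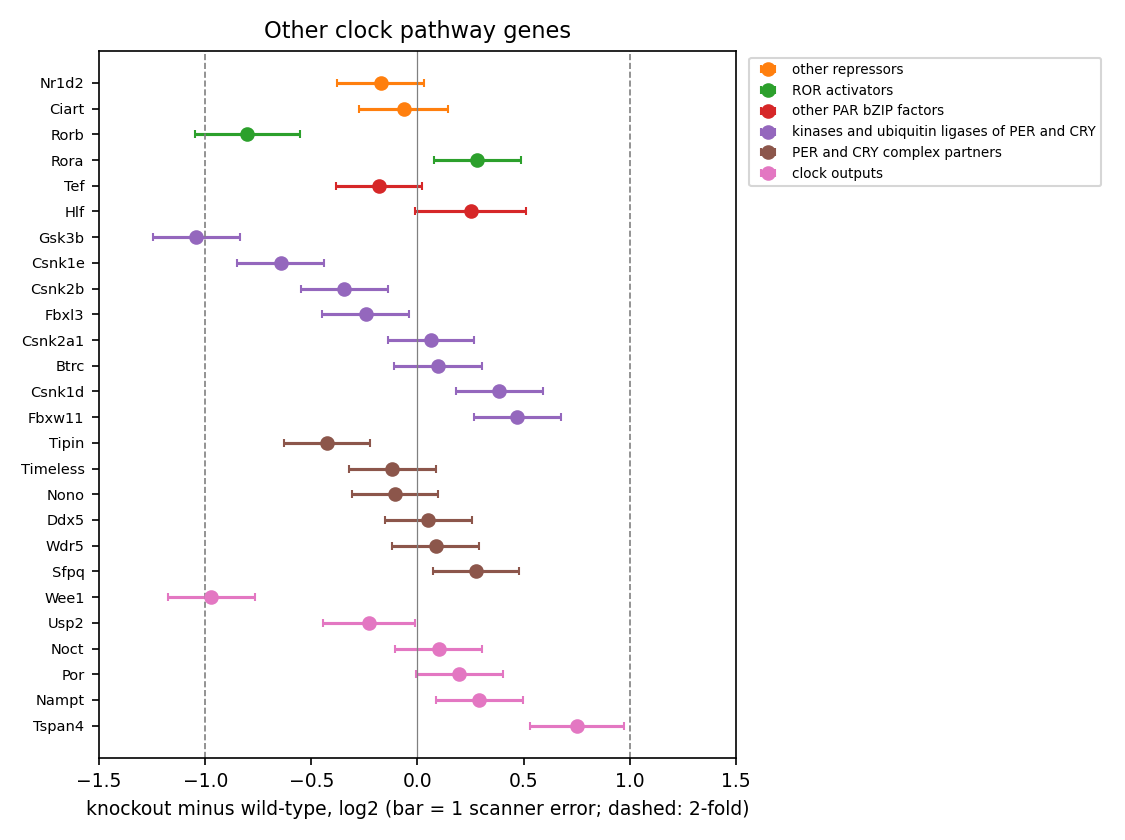
Difference of 26 of the 27 other clock pathway genes well above background on both arrays, as knockout minus wild-type on the log2 scale, coloured by role, with bars of 1 scanner error and dashed lines at 2-fold. Of those drawn, Gsk3b (-1.04) lies past a line and Wee1 (-0.97) just inside.

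Signals that reach the clock genes from outside the loop were taken from short lists. Of 6 glucocorticoid-induced genes other than Per1, 5 were higher in knockout and 1 was lower, with a median of 0.16 on the log2 scale. Of all 12959 measured genes, 6536 were higher and 6423 lower. Klf9 was 2.03-fold higher, Tsc22d3 (GILZ) had 0.53 and Fkbp5 0.27. Sgk1 (0.060), Dusp1 (0.057) and Zbtb16 (-0.12) were within 1 scanner error. Of the 6, 2 were higher by over 2 scanner errors, beside 16.6% of all genes. Of 6 measured genes of the cAMP and immediate early response, 5 were higher and 1 lower, with a median of 0.25, Sik1 at 0.55 and Fosb at -0.67. Nr4a1, an immediate target of T cell receptor signalling, had 0.23. Nr4a2 passed the background flag in knockout alone. Its brighter probe read 23.7 and 39.9, a bound of 1.70-fold higher that carries no scanner error. The median pixel intensities of that probe were 69 and 80 over local backgrounds of 19.5 and 16.5. The other Nr4a2 probe read 15.5 and 15.5 and gave no bound. All 8 genes of dividing cells were lower, with a median of -0.72, Mki67 at -0.42 and Top2a 2.83-fold lower. The part of these signals in the clock gene values was not tested.

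Markers of other cells gave signal on both arrays, and clock genes are expressed in nearly all cell types. Of 7 measured markers of macrophages and dendritic cells, 6 were higher and 4 at least 2-fold higher in knockout, beside 3.97% of all genes at 2-fold. Their median was 1.23 (Adgre1 1.23, Mrc1 1.39). Summed levels, in multiples of the array's 75th percentile, were 154 in wild-type and 178 in knockout. Most of both sums was Siglech, the 1 lower marker, at signals of 74900 and 67500 (-0.084) by its brighter probe. Its other probe was at 0.51. Of 8 CD8 and NK cell markers 7 were higher, with summed levels of 34.5 and 70.2 and a median of 0.45 (Cd8a 0.50, Cd8b1 0.37). The dimmer Cd8a probe, at signals of 220 and 202, was at -0.057. The differences of the CD8 and NK list ran from -0.19 (Klrb1c) to 1.56 (Klra1), with Klrd1 at 0.090. Klra1, at signals of 8790 and 24700, made up most of the rise in the sum. Of these 8 markers, 4 were higher by over 2 scanner errors, beside 16.6% of all genes. Of 7 markers of mast cells, basophils and neutrophils 5 were higher, at summed levels of 211 and 225 and with Cpa3 at 1.73 and Fcer1a at 1.49. Most of both sums was S100a9, at signals of 92000 and 89000 (0.018), and S100a8, at 29800 and 34900 (0.29). Cpa3, at signals of 245 and 774, and Fcer1a, at 55.2 and 148, were far dimmer. In the same list Kit was at 0.65, Mcpt8, a basophil protease, at -0.80, and Elane, a neutrophil elastase, at -0.36. Of 7 measured markers of red cells and stroma 3 were higher, at 11.1 and 12.7 and with Hbb-bt at -0.35 and Alas2 at -1.15. The red cell and stromal members differed in direction: Col1a2 was at 1.28, Pdgfrb at 1.22 and Col1a1 at 0.44, while the endothelial genes Cdh5 and Pecam1 were at -0.044 and -0.44. Of 8 B cell markers 7 were lower, at 189 and 162 and with Ms4a1 at -0.42, Cd79a at -1.18 and Blk at -1.41. The 9 T cell markers had a median of 0.039, at 108 and 107, but were not alike. Of these, 3 were lower by over 2 scanner errors, Cd3e (-1.13), Cd28 (-0.81) and Cd3g (-0.71), and 0 were higher by as much. Among all genes, 17.1% were lower and 16.6% higher by over 2 scanner errors. The TH9 markers had 4 measured members, at 4.13 and 4.13 and with a median of -0.089. Irf4 was at -0.32, Il10 at -0.20 and Batf at 0.020, while Il17rb, at 57.8 and 130, was 2.35-fold higher in knockout. Spi1 passed the background flag in knockout alone, at 9.36 and 27.6, a bound of 1.17-fold higher that carries no scanner error. The median pixel intensities of Spi1 were 55 and 71 over local backgrounds of 21 and 19. Fewer cells of a type and less RNA per cell cannot be told apart in such bulk samples. The part of these cells in the values of Per1, Cry1, Nfil3 and Arntl was not tested.

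**Figure D5:**
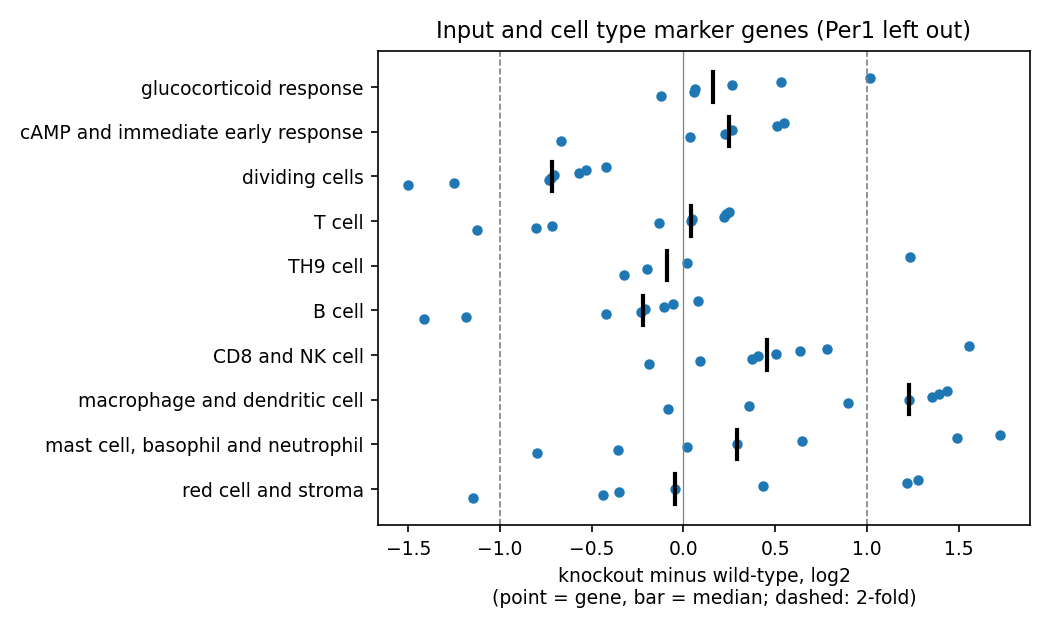
Difference of glucocorticoid-induced, cAMP and immediate early, and dividing-cell genes and of 7 lists of cell type markers, as knockout minus wild-type on the log2 scale, with each gene measured on both arrays as a point, the list's median as a black bar and 2-fold as dashed lines. The median of dividing-cell genes is -0.72 and that of macrophage and dendritic cell markers 1.23.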

How the data were processed

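RNA from 1 culture per genotype was hybridised to 1-colour (Cy3) Agilent arrays. The authors deposited scanner output of Agilent Feature Extraction 11.0.1.1 (file headers; submitters' processing notes), whose processed signal is an intensity. Per the file headers both arrays share 1 scan. They also give flags per spot, a kind of value the authors deposited under other columns. The authors' deposited value table holds log2 values, with equal column medians of 5.36, which rise with the log2 scanner signal. The normalization and centring behind them are not given in the sources used here.

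Values were log2 processed signal minus the 75th percentile over the array's gene spots, with control spots and outlier-flagged spots left out and spots of a probe averaged. Probes were named through unversioned RefSeq accessions in a GRCm38.p6 table (27220 of the 39411 probes left matched), while the headers name mm9, so coordinates are given for RefSeq promoters only. A gene was represented by its brightest probe among those that passed the background flag on an array, and counted as measured where that probe was above background on both. Where only 1 array passed, the fold is a bound against the dim side, taken as its smallest signal with the flag or the probe's own signal if larger.

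Alternatives were scaling to the median or over probes above background only, quantile normalization, loess, normexp (limma 3.58.1 in R 4.3.3, offset 50, on median pixel intensities), the deposited table, means over probes, outlier spots kept, looser background filters, and 1.5-fold or 3-fold in place of 2-fold. The functions were tested on simulated data. All 10 members were named, with all other clock genes past 2-fold or measured on 1 array, Sirt1, and the first 2 genes of each list, except genes that are not reported here. Other genes named, and the 4 ratios of members, were chosen after their values were seen. The members and lists were chosen with earlier results of these data known. Errors cover the scanner only, and 1 array per genotype limits the precision.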

Additional observations from a re-analysis of the deposited data

How the results depend on the processing

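No paired analysis was possible because each genotype had 1 array. Of 99 recomputed member differences, 96 moved by less than their scanner error, and the other 3 were all with normexp: Per2 at -0.73, Cry1 at 0.25 and Bhlhe40 at -0.51, where the cause was not tested. The count of members at least 2-fold higher was 1, Per1, with scaling to the median and with normexp, and 2 at the 1.5-fold threshold. The count at least 2-fold lower was 1 with no filter on dim probes, which lets in Per3 at background. The other clock genes past 2-fold numbered 1 with scaling to the median, 1 with normexp (Rorb), 0 with the mean over probes above background, 0 with the mean over all probes, 6 at 1.5-fold and 0 at 3-fold, beside 2. The median difference of the members stayed between 0.093 and 0.31, and that of the other clock genes ran from -0.13 to 0.23. Of 297 differences of single other clock genes, 31 moved by more than their scanner error and 0 of those past 2-fold turned sign. Per2 and Per3 are limited by signal over background.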
